A study of Mus musculus with 6 samples.

Results

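Cryz, Cryzl1, Cryl1 and Crym encode enzymes whose relatives serve as bulk lens proteins in some animals, and all 4 genes, of 41128 features per library, were found by their row names and passed the filter on low counts. Their transcripts were measured by RNA sequencing in whole mouse lenses at E13.5 of embryonic development, in 3 libraries per genotype, each a biological replicate from a pool of 30 lenses. The knockout libraries came from lenses labelled Prox1 cKO with the genotype Prox1 f/f MLR10Cre+, in which floxed alleles of the homeodomain factor gene Prox1 are cut by a Cre transgene that is active in lens cells, and the controls were wild type lenses. They are called cKO and control libraries from here on. The labels give the strain C57Bl/6 for both genotypes. No library carried the Cre transgene alone or the floxed alleles alone, so an effect of the transgene or of the floxed alleles cannot be told apart from one of losing Prox1.

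Vertebrate lenses commonly hold alpha, beta and gamma crystallins as bulk proteins. Some lineages have also recruited a metabolic enzyme as an abundant lens protein, usually through a strong lens promoter and without losing the enzyme's activity. Zeta-crystallin of guinea pigs and camels is an NADPH-dependent quinone oxidoreductase encoded by Cryz, lambda-crystallin of rabbits and hares is a dehydrogenase of L-gulonate encoded by Cryl1, and mu-crystallin of kangaroos is a ketimine reductase that also binds thyroid hormone, encoded by Crym. Cryzl1 encodes a further protein of the quinone oxidoreductase family that is named for its likeness to zeta-crystallin. In the mouse these genes are not known as sources of bulk lens protein.

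Each gene lies on a chromosome of its own in GRCm38. Cryz (ENSMUSG00000028199) spans 154596711 to 154623182 on the plus strand of chromosome 3, and Cryzl1 (ENSMUSG00000058240) spans 91689322 to 91728975 on the minus strand of chromosome 16. Cryl1 (ENSMUSG00000021947) spans 57274993 to 57398529 on the minus strand of chromosome 14, and Crym (ENSMUSG00000030905) spans 120186380 to 120202111 on the minus strand of chromosome 7. The start regions of 3 of the 4 genes, from 250 bases before to 50 bases after a RefSeq transcript start (GRCm38.p6), are shown so that the gene that fell in the cKO (Cryz), its family relative (Cryzl1) and the gene that rose (Cryl1) can be read side by side. They are Cryz at chr3:154596947-154597246, plus strand, Cryzl1 at chr16:91728753-91729052, minus strand, and Cryl1 at chr14:57398434-57398733, minus strand, and capitals mark matches to the motifs searched.
Cryz: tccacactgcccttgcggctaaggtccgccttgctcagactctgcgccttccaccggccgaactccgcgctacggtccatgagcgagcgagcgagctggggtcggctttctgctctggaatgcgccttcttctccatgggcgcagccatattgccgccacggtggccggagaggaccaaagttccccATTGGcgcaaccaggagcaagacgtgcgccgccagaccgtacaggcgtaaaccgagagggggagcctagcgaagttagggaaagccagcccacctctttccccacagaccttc
Cryzl1: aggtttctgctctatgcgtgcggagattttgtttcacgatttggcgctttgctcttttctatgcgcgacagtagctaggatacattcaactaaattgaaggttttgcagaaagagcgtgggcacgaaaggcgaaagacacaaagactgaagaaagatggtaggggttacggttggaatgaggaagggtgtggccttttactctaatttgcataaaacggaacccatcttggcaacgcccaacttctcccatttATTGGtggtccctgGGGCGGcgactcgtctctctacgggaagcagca
Cryl1: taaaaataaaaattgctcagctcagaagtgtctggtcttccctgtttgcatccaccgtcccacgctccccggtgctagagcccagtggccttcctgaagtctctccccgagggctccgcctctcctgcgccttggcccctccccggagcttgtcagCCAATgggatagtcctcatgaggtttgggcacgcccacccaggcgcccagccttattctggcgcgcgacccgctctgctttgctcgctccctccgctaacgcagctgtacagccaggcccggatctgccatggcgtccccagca
The motifs searched, on both strands, were the CCAAT box (CCAAT), the TATA box (TATAAA), the GC box (GGGCGG), an E-box (CACGTG), the core of the heat shock element (GAANNTTC), the core of the antioxidant response element (TGACNNNGC) and part of the site that Maf factors bind (TGCTGAC), and no matches overlapped. All 3 windows held CCAAT, which 37.4% of 32851 RefSeq windows of the same length hold, at -63 for Cryz, 4 for Cryzl1 and -94 for Cryl1, counted from the transcript start. Cryzl1 also held GGGCGG at 18, a motif of 35.7% of the windows. The other 5 motifs, among them TATAAA (13.6% of all windows), TGACNNNGC (12.4%) and TGCTGAC (4.67%), were not in these 3 windows. A second Cryz window, whose transcript start is the first base of the annotated gene (chr3:154596461-154596760), held CCAAT at -24 and CACGTG at -212, the latter found in 7.15% of all windows. The printed windows of Cryz and Cryl1 had 63.3% and 62.3% G or C, the second Cryz window 53.0% and that of Cryzl1 48.3%, beside a median of 52.7% over all windows.

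Totals ran from 9082219 to 28391662 counts per library, and the rarest of the 4 transcripts, Cryl1, was read by 24 to 134 counts per library. Levels of 1 gene across libraries are given as CPM scaled by TMM, a factor per library that allows for a few very abundant transcripts. The targeted gene Prox1 had 651, 728 and 707 CPM in cKO libraries 1, 2 and 3 against 922, 1215 and 1246 CPM in the control libraries, and fell 1.62-fold (edgeR quasi-likelihood test, adjusted p 0.0074), a count over the whole gene that does not single out the deleted exons. All 7 lens markers in the tables were present in every library, with summed levels of 17494 to 19225 CPM in the cKO against 71289 to 128041 CPM in the controls. Of these 7 markers 6 fell and Pax6 rose. Of 6 neuron markers 0 rose and 1 fell, with sums of 78.0 to 110 CPM in the cKO and 84.2 to 129 CPM in the controls. Of all features tested 16.8% fell and 15.9% rose, so the 1 of 6 neuron markers is near the background share. Each library was made from whole lenses, so fewer cells of a type and less RNA per cell cannot be told apart. The labels do not say whether embryos of 1 litter entered several pools, and p-values rest on the variation among these pools alone.

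Between genotypes, Cryz fell, Cryl1 rose, and Cryzl1 and Crym did not pass the test. These 2 of 4 genes called compare with 32.6% of the 14271 features tested (15.9% higher and 16.8% lower in the cKO), and the groups' libraries did not overlap for the same 2 genes, as for 50.1% of all features tested. With 4 genes, nothing about the group is read from these counts, and 2 of 4 is the background share for groups that do not overlap. With library totals in place of TMM, 5423 features were higher and 945 lower, in place of 2263 and 2396. By size of change, Cryl1 exceeded 92.8% of the features tested, Cryz 74.6%, Crym 40.4% and Cryzl1 38.6%.

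**Figure D1:**
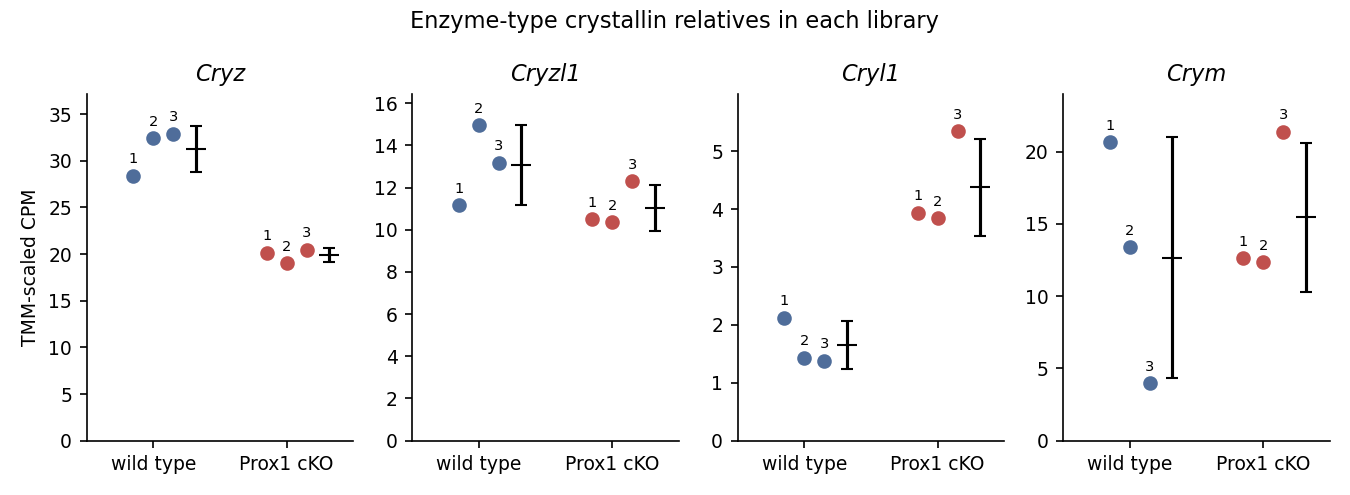
TMM-scaled CPM of Cryz, Cryzl1, Cryl1 and Crym (vertical axes, each from 0) in 3 wild type libraries (blue) and 3 Prox1 cKO libraries (red); numbers are replicate numbers, and the bar is the mean with SD. The groups are apart for Cryz and Cryl1 and overlap for Cryzl1 and Crym, whose wild type libraries range from 3.97 to 20.7 CPM.

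Cryz encodes zeta-crystallin, which reduces quinones with NADPH as its cofactor. It had 20.1, 19.0 and 20.5 CPM in cKO libraries 1, 2 and 3 against 28.4, 32.4 and 32.9 CPM in control libraries 1, 2 and 3. All cKO libraries were low and close together, all control libraries were high, and the lowest control library stood 1.39-fold above the highest cKO library. The mean was 19.9 ± 0.752 CPM in the cKO against 31.2 ± 2.48 CPM in the controls (SD, n = 3 each). Cryz thus fell 1.57-fold (log2 -0.65, SE 0.108, edgeR adjusted p 0.00313, 95% interval 1.32-fold to 1.86-fold). The coefficient of variation over the cKO libraries was 3.78%. Of the 2325 tested genes within 0.5 log2 units of its mean level, 9.20% had a smaller one. This spread was below the counting error of each cKO library (3.82% to 7.02%), so it is not read as a trait of Cryz.

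The fall of Cryz was read from raw counts of 685, 228 and 203 in the cKO against 588, 566 and 572 in the controls, where counting alone gives an error of 3.82% to 7.02% of the value. With library totals in place of TMM, the change was -0.29 on the log2 scale and was not called (edgeR adjusted p 0.113). That scaling raised the log2 change of the median gene by 0.35, and relative to the median of all genes tested Cryz stood at -0.68 with it and at -0.69 with TMM.

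Cryz overlaps 1 other gene. Tyw3, which encodes an enzyme of transfer RNA modification, lies on the opposite strand and shares 252 exon bases with it, 4.07% of the exon bases of Cryz, and the library kit keeps no strand. Tyw3 was not called (log2 0.16, edgeR adjusted p 0.376). The nearest protein-coding genes that do not overlap Cryz, Lhx8 and BC007180, had at most 6 counts in any library and were not tested.

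Genes that followed Cryz across the 6 libraries were found by the root mean square difference of log2 CPM, each gene centred on its own mean. The closest of 9490 genes of at least 10 CPM were Fgfr1op2 (difference 0.030), Vav2 (0.038) and Wdr13 (0.038). Vav2 encodes an exchange factor for small GTPases, and it went from 88.1 ± 7.45 to 57.4 ± 0.927 CPM. The pattern was a common one, since 1636 genes lay within 0.2 of Cryz.

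Cryzl1 encodes a quinone oxidoreductase-like protein of the same family as zeta-crystallin. It had 10.5, 10.4 and 12.3 CPM in the cKO libraries against 11.2, 14.9 and 13.2 CPM in the control libraries. Control library 1 lay among the cKO libraries, so the groups overlapped. The means were 11.1 ± 1.09 and 13.1 ± 1.90 CPM (SD, n = 3 each), and Cryzl1 was not called (log2 -0.25, SE 0.160, edgeR adjusted p 0.259). The 95% interval of the log2 change ran from -0.61 to 0.12, which allows a fall nearly as large as that of Cryz as well as no change. With library totals in place of TMM the log2 change was 0.11, on the other side of 0.

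The locus of Cryzl1 is crowded. Exons of Gm10785 on the opposite strand cover 9.80% of its exon bases, but Gm10785 had at most 3 counts in a library. Atp5o, which encodes a subunit of mitochondrial ATP synthase, overlaps Cryzl1 on the same strand without shared exon bases, and it fell by 0.50 on the log2 scale (edgeR adjusted p 0.0271). Itsn1, the gene of the endocytic scaffold intersectin, starts 305 bases from Cryzl1 on the opposite strand and had a log2 change of -0.28 (edgeR adjusted p 0.102). Donson, a gene of DNA replication, lies 551 bases from the other end and had a log2 change of 0.20 (0.260). The genes with patterns closest to Cryzl1 were Mb21d2 (difference 0.050), Atraid (0.061) and Stx17 (0.063), and none of these 3 was called.

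Within a library, the ratio of 2 genes does not depend on how libraries are scaled. The ratio of Cryz to Cryzl1, in the deposited RPKM, was 2.81, 2.70 and 2.44 in the cKO libraries against 3.73, 3.18 and 3.66 in the control libraries. Every control library had the higher ratio, so that Cryz lost ground to its family relative by 1.33-fold. An exact two-sided permutation test gave p = 0.10, the smallest value that 3 against 3 libraries allow (adjusted p 0.20 over the 6 pairs of the 4 genes).

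Cryl1 encodes lambda-crystallin, the L-gulonate dehydrogenase that acts in the uronate pathway of glucose. It had 3.94, 3.84 and 5.35 CPM in the cKO libraries against 2.12, 1.43 and 1.38 CPM in the control libraries. All cKO libraries were above all control libraries, by 1.81-fold at the closest pair, with cKO library 3 the highest of its group and control library 1 the highest of the controls. The means were 4.38 ± 0.842 and 1.65 ± 0.415 CPM (SD, n = 3 each). Cryl1 rose 2.61-fold (log2 1.39, SE 0.268, edgeR adjusted p 0.00612, 95% interval 1.71-fold to 4.0-fold), and was the 1 gene of the 4 both called and changed at least 2-fold, as were 11.0% of the features tested (5.86% higher).

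Because Cryl1 is rare, its level in each library is known with limited precision. Raw counts were 134, 46 and 53 in the cKO against 44, 25 and 24 in the controls, and the 24 counts of control library 3 have an exact Poisson interval of 15.4 to 35.7 (95%, counting error only). No annotated gene shares exon bases with Cryl1. Its neighbour Ift88, a gene of ciliary transport, showed no call (log2 -0.16, edgeR adjusted p 0.332); its other neighbour Gjb6, a connexin gene, had between 3 and 9 counts per library and was not tested.

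Against both quinone oxidoreductase genes, the ratios within libraries shifted towards Cryl1. The ratio of Cryz to Cryl1, in RPKM, was 2.43, 2.35 and 1.82 in the cKO against 6.35, 10.8 and 11.3 in the controls, and fell 4.20-fold. The ratio of Cryzl1 to Cryl1 was 0.863, 0.873 and 0.746 in the cKO against 1.70, 3.38 and 3.09 in the controls. With the deposited lengths, Cryzl1 was thus above Cryl1 in every control library and below it in every cKO library. With the lengths of all annotated exons it was above Cryl1 in the cKO as well, at means of 2.75 and 2.26 RPKM. Both ratios were apart between the groups, with exact permutation p = 0.10, the smallest possible, and adjusted p 0.20 over the 6 pairs.

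The genes with patterns closest to Cryl1 were Axl (difference 0.076), Anxa2 (0.090) and Igfbp4 (0.12), and 39 of 9491 genes were within 0.2. Axl, which encodes a receptor tyrosine kinase that binds Gas6, had 68.8, 71.5 and 87.0 CPM in the cKO against 42.1, 26.9 and 25.5 CPM in the controls. Like Cryl1, it was highest in cKO library 3 and, among the controls, in control library 1. Anxa2, the annexin A2 gene, rose from 43.2 ± 7.20 to 111 ± 29.0 CPM, and Igfbp4, which encodes a binding protein of insulin-like growth factors, rose from 135 ± 36.1 to 299 ± 31.9 CPM.

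Markers of other tissues of the eye region were higher beside Cryl1. Of all features tested 15.9% were called higher in the cKO. Of 5 surface ectoderm markers all 5 rose, with summed levels of 37.0 to 123 CPM in the cKO against 9.05 to 26.5 CPM in the controls. Of 6 pigment cell markers 5 rose, with sums of 362, 263 and 728 CPM in the cKO against 190, 81.1 and 168 CPM in the controls. cKO library 3 was the highest library for Cryl1 and for both of these marker lists. Of 6 neural retina markers 3 rose. The 6 summed to 1875, 1797 and 1302 CPM in cKO libraries 1, 2 and 3 against 541 to 823 CPM in the controls. Sfrp2 made up the largest part, and the other 5 summed to 518, 347 and 328 CPM against 204 to 326 CPM. For this list cKO library 3 was thus the lowest cKO library, unlike for Cryl1. In none of these 3 lists was a marker at 0 in all libraries, and their part in the rise of Cryl1 was not tested. Without cKO library 3 Cryl1 still rose, by a log2 change of 1.23 (edgeR adjusted p 0.0161). In cKO libraries 1 and 2 the surface ectoderm sums, 66.1 and 37.0 CPM, were also above every control library, as were the pigment cell sums. Leaving out cKO library 3 thus does not separate Cryl1 from these markers.

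Crym encodes mu-crystallin, which reduces cyclic ketimines and holds thyroid hormone in the cytosol. It had 12.6, 12.4 and 21.4 CPM in the cKO libraries against 20.7, 13.4 and 3.97 CPM in the control libraries. The groups overlapped over most of their range, and both the lowest and the second highest library were control. The means were 15.5 ± 5.14 and 12.7 ± 8.37 CPM (SD, n = 3 each), and Crym was not called (log2 0.26, SE 0.489, edgeR adjusted p 0.698). The 95% interval of the log2 change, from -0.85 to 1.38, includes changes of nearly the size seen for Cryl1 in one direction and beyond that of Cryz in the other. Without control library 3 the log2 change was -0.18, without cKO library 3 it was -0.03, and without control library 1 it was 0.78 (edgeR adjusted p 0.690, 0.975 and 0.235).

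Crym was the most variable of the 4 genes. Its control libraries differed 5.20-fold and had a coefficient of variation of 66.0%, larger than that of 99.6% of the 1803 tested genes within 0.5 log2 units of its mean level, whose median was 10.9%. In the cKO the coefficient of variation was 33.3%, larger than that of 92.4% of these genes. The raw counts were 428, 234 and 69 in the controls, with counting errors of 4.83% to 12%, all below this spread. Crym overlaps no annotated gene, and its neighbours Anks4b and Abca14 had at most 7 counts in any library.

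Among the control libraries, the summed markers of blood and vessels had the same order as Crym. The 7 erythroid markers summed to 2318, 1358 and 730 CPM in control libraries 1, 2 and 3, the same order as Crym. In the cKO libraries they summed to 1317, 2083 and 1760 CPM, another order than that of Crym. Hbb-y made up the largest part of these sums, with 1830, 937 and 385 CPM in control libraries 1, 2 and 3. Blood vessel endothelium markers summed to 398, 293 and 211 CPM and macrophage markers to 54.3, 34.9 and 24.1 CPM in the control libraries. In cKO libraries 1, 2 and 3 the former summed to 336, 449 and 459 CPM and the latter to 46.5, 67.1 and 60.5 CPM. Both were in another order than Crym there. In cKO library 3, the highest for Crym, periocular mesenchyme markers summed to 874 CPM, against 248 and 311 CPM in the other cKO libraries, and skeletal muscle markers to 70.8 CPM, against 2.50 and 9.27 CPM. The control libraries had 142 to 268 CPM of the former and 6.52 to 21 CPM of the latter. A single gene made up most of each sum in cKO library 3, Col3a1 with 771 CPM for mesenchyme and Ttn with 63.2 CPM for muscle. None of the tested endothelium (5), macrophage (5), mesenchyme (4) and muscle (3) markers was called, beside 32.6% of all features tested. Of the 7 erythroid markers 3 rose, beside 15.9% of all features tested. Of these lists 1 marker, Foxc2, was at 0 in every library, and the part of these cells in the level of Crym was not tested.

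**Figure D2:**
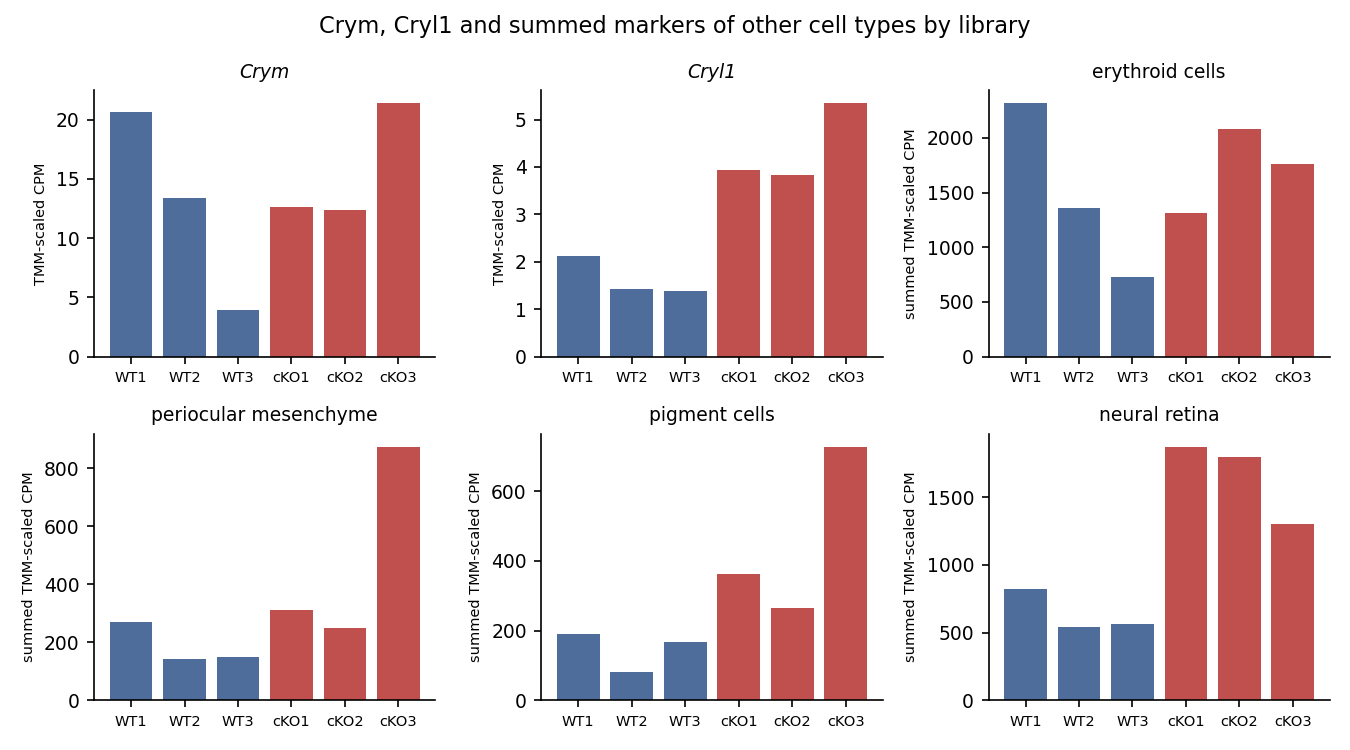
TMM-scaled CPM of Crym and Cryl1 and summed TMM-scaled CPM of 4 marker lists (vertical axes, from 0) in wild type libraries 1 to 3 (WT, blue) and Prox1 cKO libraries 1 to 3 (cKO, red). Among the wild type libraries Crym and the erythroid sum are both highest in library 1 (20.7 and 2318 CPM) and lowest in library 3 (3.97 and 730 CPM), and knockout library 3 is the highest for Crym, Cryl1, mesenchyme and pigment cell markers. Hbb-y makes up the largest part of the erythroid sum and Col3a1 that of the mesenchyme sum.

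Of 9490 genes of at least 10 CPM, none lay within 0.2 of Crym. The closest were Tmem255a (difference 0.35), Aldh1a2 (0.37) and Hbb-y (0.37). Aldh1a2, whose enzyme makes retinoic acid, had 13.1, 17.5 and 13.8 CPM in the cKO against 24.8, 16.1 and 5.30 CPM in the controls. Hbb-y, the embryonic beta-like globin gene, had 795, 1457 and 1175 CPM in the cKO against 1830, 937 and 385 CPM in the controls. It is the same gene that made up the largest part of the erythroid sums. All 3 genes were highest in control library 1 and lowest in control library 3 among the controls, as Crym was, but none stood out in cKO library 3 alone.

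Levels of different genes were compared per length, with the deposited RPKM. In control lenses Cryz had 9.29 ± 0.107, Crym 3.43 ± 2.51, Cryzl1 2.65 ± 0.213 and Cryl1 1.05 ± 0.373 RPKM (SD, n = 3). In the cKO the order was Cryz with 7.57 ± 0.544, Crym with 5.11 ± 1.55, Cryl1 with 3.49 ± 0.587 and Cryzl1 with 2.86 ± 0.238 RPKM. Cryz was first in all 6 libraries. Within libraries, the order Cryz, Crym, Cryl1, Cryzl1 was the same in all 3 cKO libraries, although the ranges of the neighbours Crym and Cryl1, and of Cryl1 and Cryzl1, overlapped across them. The ratio of Crym to Cryl1 was 1.33, 1.34 and 1.66 there. In every control library Cryl1 was last, with a ratio of Crym to Cryl1 of 4.04, 3.89 and 1.2. Crym (0.978 to 5.99 RPKM) and Cryzl1 (2.52 to 2.89 RPKM) did not differ beyond their spread in the controls, and Cryzl1 was the higher of them in control library 3. Cryz stood above 74.2% of the features with an RPKM in the controls, Crym above 56.8%, Cryzl1 above 53.4% and Cryl1 above 43.5%.

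The order depends on the length assigned to each gene. The deposited values rest on lengths of 2968 bases for Cryz, 4353 for Cryzl1, 1410 for Cryl1 and 3391 for Crym, while all exons annotated in GENCODE M21 cover 6195, 4529, 2178 and 3391 bases. With the latter lengths, chosen after the data were seen, the control order held, at 4.45, 3.43, 2.54 and 0.681 RPKM for Cryz, Crym, Cryzl1 and Cryl1. In the cKO it became Crym with 5.11, Cryz with 3.63, Cryzl1 with 2.75 and Cryl1 with 2.26 RPKM.

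None of the 4 genes was a bulk transcript of the mouse lens. Together they took 0.00565%, 0.00501% and 0.00650% of the counts in the cKO libraries against 0.00613%, 0.00524% and 0.00430% in the control libraries, so that their share overlapped between the genotypes while its make-up differed. The 16 alpha, beta and gamma crystallin genes had a summed RPKM 6059, 11938 and 15337 times that of the 4 genes in control libraries 1, 2 and 3, and 1274, 1461 and 1256 times in the cKO libraries. Of these 16 genes 15 fell, beside 16.8% of all features tested. Their median log2 change was -3.81, beside 0.04 over all features tested. The remaining 1, Crybb2, was the only one of the 16 at the level of the enzyme relatives, with 2.55 ± 0.434 RPKM in the controls.

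**Figure D3:**
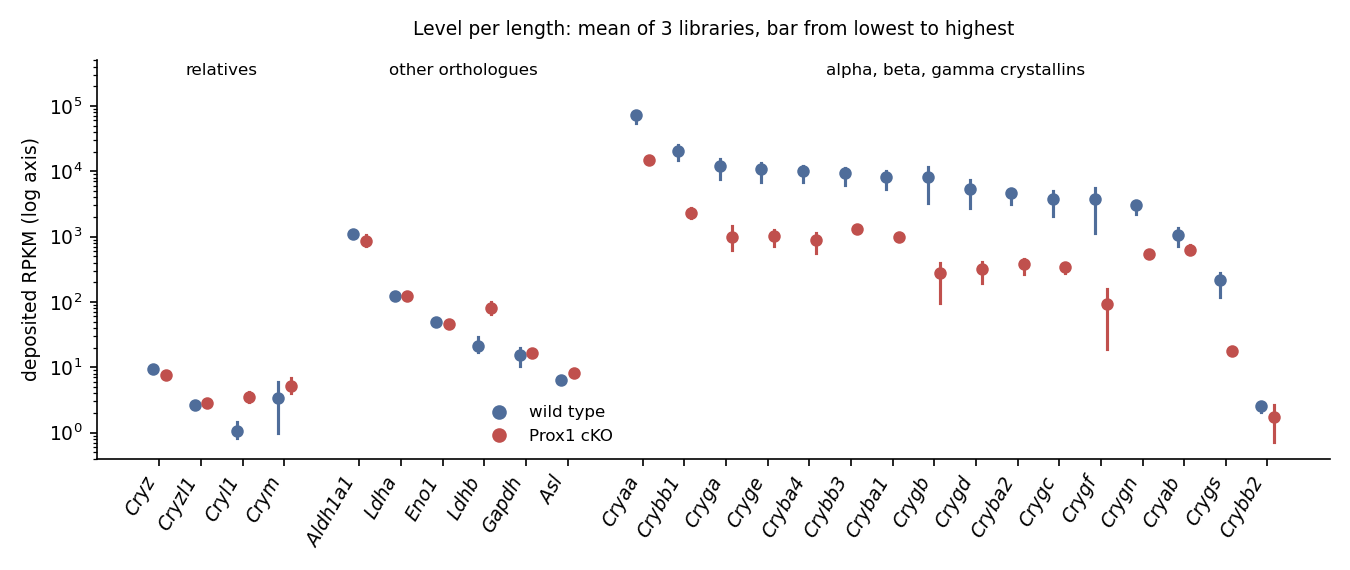
Deposited RPKM (vertical log axis) of the 4 enzyme-type crystallin relatives, 6 mouse orthologues of other taxon-specific crystallins and 16 alpha, beta and gamma crystallins; points are means of 3 libraries, wild type in blue and Prox1 cKO in red, and bars run from the lowest to the highest library. Cryz, Cryzl1, Cryl1 and Crym lie between 1.05 and 9.29 RPKM, far below Cryaa at the top of the crystallins.

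The pathways around the 4 genes were followed with lists of related genes. Over all features tested 32.6% were called, 15.9% higher and 16.8% lower in the cKO, and no list was tested as a set. Around Cryz and Cryzl1, other medium-chain reductases, the enzyme superfamily to which both belong, fell for the most part. Of 7 tested genes (9 in the tables), 5 fell, 0 rose and 2 were not called, and the median log2 change was -0.68 beside 0.04 over all features tested. Mecr, the mitochondrial enoyl reductase gene of fatty acid synthesis, fell most, by 1.47 on the log2 scale (edgeR adjusted p 0.000294), from 53.1 ± 9.65 to 19.2 ± 0.860 CPM. Rtn4ip1, which encodes a mitochondrial NADPH-binding oxidoreductase, fell by 0.81, Vat1 by 0.76 and Ptgr2, a prostaglandin reductase gene, by 0.68. The remaining called gene was Adh5, an alcohol dehydrogenase gene, which fell by 0.63. With library totals in place of TMM 3 of the 7 fell and 1 rose.

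Enzymes that share the substrates or the cofactor of zeta-crystallin also fell or were not called. Of 4 tested quinone and carbonyl reductases, Cbr1 fell by 0.52 and Cbr4 by 0.52 on the log2 scale (edgeR adjusted p 0.00865 and 0.0126). Nqo1, the inducible quinone reductase gene, was not called (log2 0.93, edgeR adjusted p 0.0716), nor was Nqo2 (-0.09, 0.860). Of 7 genes that supply NADPH, 4 fell, 0 rose and 3 were not called, with a median log2 change of -0.39. Of all features tested 16.8% fell, and their median log2 change was 0.04. Malic enzyme gene Me1 fell from 44.3 ± 9.59 to 17.1 ± 2.11 CPM, Idh1 fell by 0.62, Tkt by 0.45 and G6pdx, the first enzyme of the pentose phosphate pathway, by 0.39. With library totals, 1 quinone or carbonyl reductase gene rose and 0 fell, and 1 NADPH gene rose and 1 fell. Without cKO library 2 or 3 or control library 2 or 3, 2 NADPH genes were called, and without control library 2 or 3, 1 of the quinone and carbonyl reductase genes. With no filter on low counts 2 genes of the latter list rose and 2 fell.

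Around Cryl1, the genes of the uronate and polyol pathway were called about as often as all features tested (32.6%). Among the 8 tested there were 2 that rose, 1 that fell and 5 without a call, with a median log2 change of 0.27 beside 0.04 over all features. Dcxr, which encodes the L-xylulose reductase further along the pathway, rose by 0.70 on the log2 scale (edgeR adjusted p 0.0191), from 3.50 ± 0.211 to 5.67 ± 0.217 CPM. Ugdh, which makes UDP-glucuronate, rose by 0.58 (0.0109), and Ugp2, which makes UDP-glucose, fell by 0.45 (0.00955). Akr1a1, whose enzyme makes L-gulonate from glucuronate, was not called (log2 -0.32, edgeR adjusted p 0.0772). Without control library 2 or 3 the number called was 1, which fell, and with library totals 4 rose and 0 fell. Lambda-crystallin resembles the 3-hydroxyacyl-CoA dehydrogenases in sequence, and of 3 such genes Ehhadh of peroxisomes rose by 0.91 (edgeR adjusted p 0.00902), Hadha fell by 0.32 (0.0413) and Hadh was not called (log2 0.20). Hadha was not called without any 1 of 5 libraries, control library 1 being the exception, nor with upper quartile scaling, and with library totals 2 of these 3 genes rose and 0 fell.

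Around Crym, carriers of thyroid hormone moved in both directions. Of 18 tested genes of thyroid hormone handling, 5 rose, 1 fell and 12 were not called, about as often as all features tested (32.6% called). The median log2 change was 0.28 beside 0.04 over all features. The transporter genes Slc7a8 and Slc16a10 rose by 1.18 and 0.98 on the log2 scale (edgeR adjusted p 0.00133 and 0.0115), and Dio3, the gene of the deiodinase that inactivates the hormone, rose by 0.85 (0.0316). Slc7a5, another amino acid and thyroid hormone carrier gene, fell by 1.05 (0.00232). The receptor genes Thra and Thrb were present at 42.3 ± 4.30 and 23.0 ± 1.33 CPM in cKO lenses and were not called (log2 0.05 and 0.12). The numbers were 2 rising and 1 falling without control library 2, 1 and 1 without control library 3, and 10 and 1 with library totals.

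Lysine degradation, which yields the cyclic ketimines that mu-crystallin reduces, was also mixed. Of 8 tested genes, 3 rose, 2 fell and 3 were not called, beside 32.6% of all features tested that were called. The median log2 change was 0.39, against 0.04 over all features. Pipox, the pipecolate oxidase gene, rose from 3.60 ± 1.01 to 13.0 ± 3.20 CPM (log2 1.86, edgeR adjusted p 0.00154). Aass, whose enzyme takes the first step from lysine, rose from 3.2 ± 1.1 to 10.7 ± 0.435 CPM (log2 1.71, 0.00152). Aldh7a1, which oxidises the semialdehyde of the pathway, fell from 335 ± 49.6 to 150 ± 6.63 CPM. Without cKO library 2 or control library 2 or 3, 2 rose and 1 fell.

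**Figure D4:**
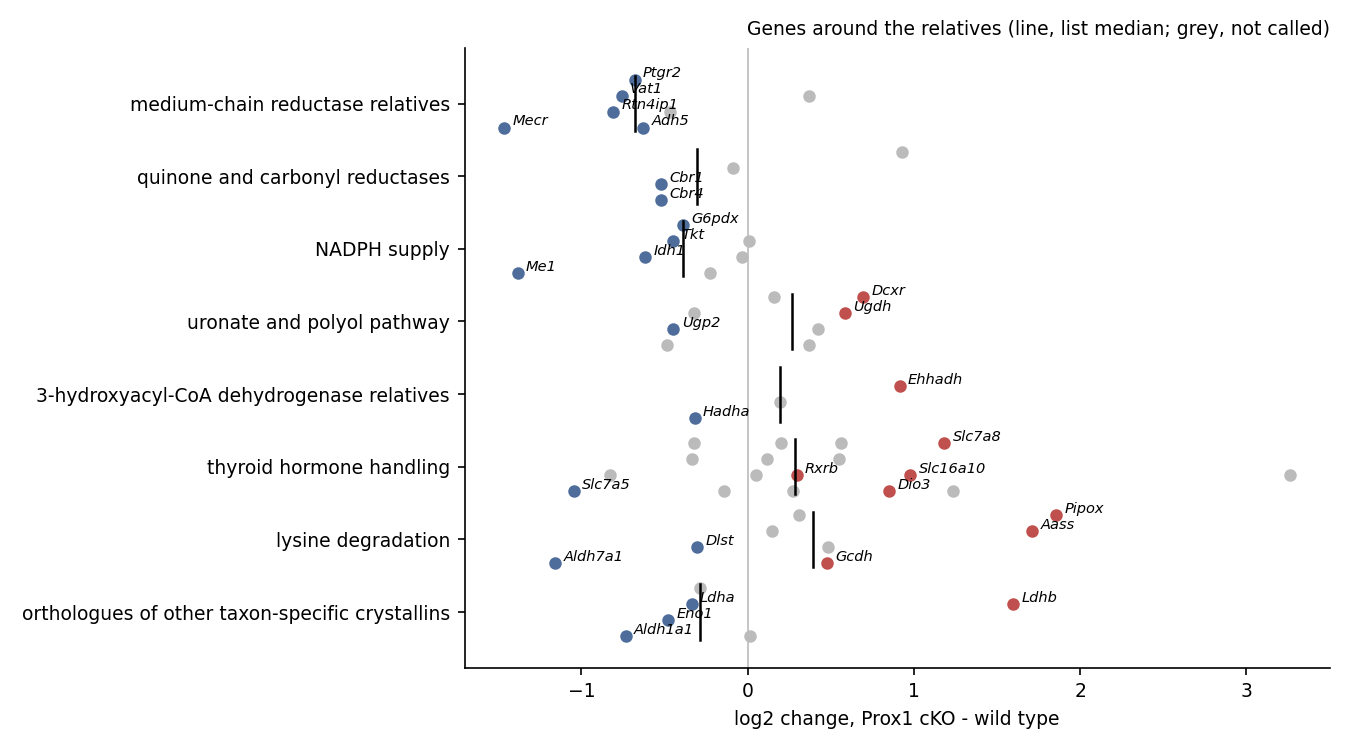
Log2 change (horizontal axis, Prox1 cKO minus wild type) of tested genes of 8 lists; red and blue points passed the test as higher or lower, grey points did not, and the black line is the median over all tested genes of the list. Medium-chain reductases and NADPH genes hold called genes to the left of 0 only, while the lists around Cryl1 and Crym have called genes on both sides.

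Other enzymes that became crystallins elsewhere in the animal kingdom also moved in both directions. Of 7 such genes, 2 rose, 3 fell and 2 were not called, beside 32.6% of all features tested that were called. The median log2 change was -0.28, against 0.04 over all features. Ldhb, the lactate dehydrogenase that is epsilon-crystallin in ducks, rose by 1.60 on the log2 scale (edgeR adjusted p 0.000409), from 37.5 ± 7.76 to 113 ± 18.3 CPM. Aldh1a1, the orthologue of eta-crystallin of elephant shrews, fell by 0.73 (0.00627) but was at 1108 ± 101 RPKM in the controls, far above the other genes of this list. Eno1 fell by 0.48 and Ldha by 0.34, Asl, the orthologue of delta-crystallin of birds, was not called (log2 0.01), nor was Gapdh (-0.28). Eno1, Ldha and Gapdh have near-identical copies elsewhere in the genome, so their share of reads is uncertain, and with library totals 2 genes rose and 0 fell.

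**Figure D5:**
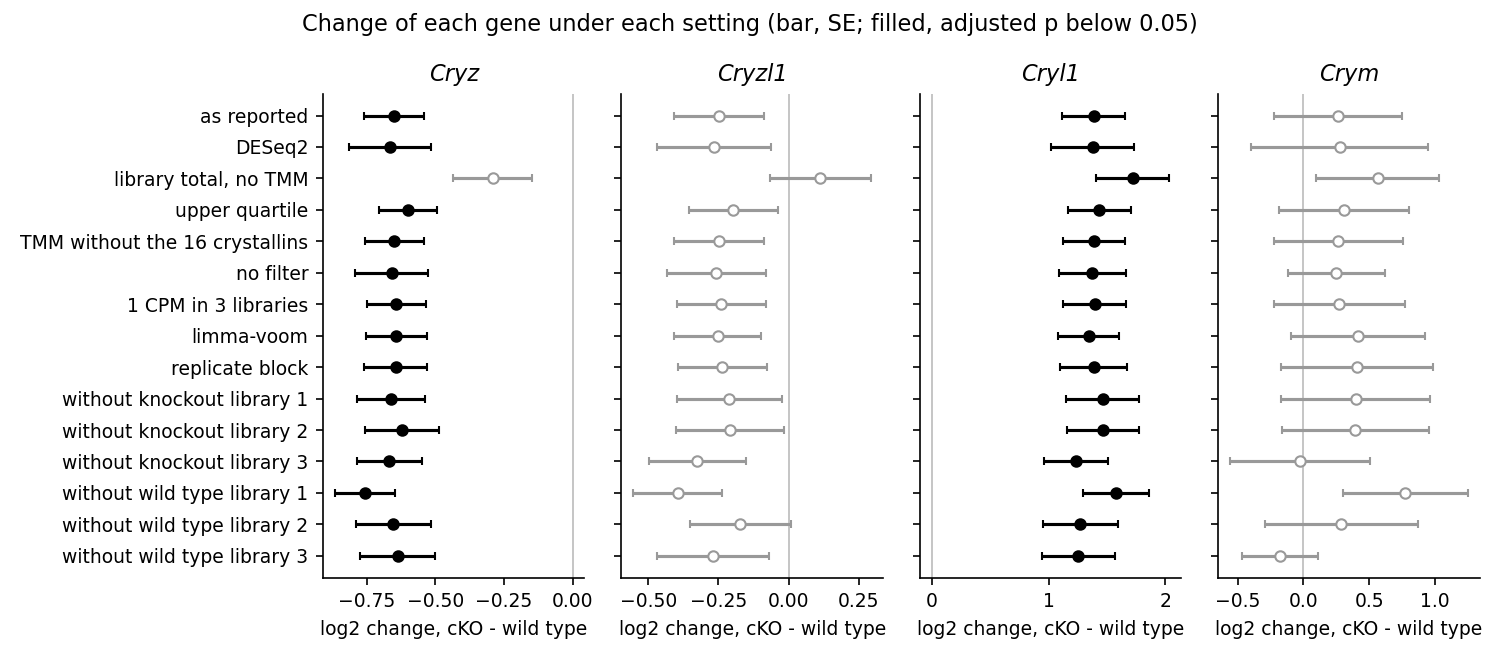
Log2 change with SE (horizontal axes, Prox1 cKO minus wild type) of the 4 genes as reported and under each of 14 alternatives; filled points have an adjusted p below 0.05. Cryl1 is filled throughout, from 1.23 to 1.72, Cryz is filled except with library totals (-0.29), and Crym and Cryzl1 are never filled and lie on both sides of 0.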

How the data were processed

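RNA from 3 knockout and 3 wild type pools was made into unstranded poly-A libraries and sequenced as single-end reads of 51 bases, per the labels. Per the file headers, the deposited tables list raw counts, CPM and RPKM for every feature. The deposited CPM equals the count over the library total within 1e-06, and the RPKM made by the authors is that CPM per kilobase of 1 length per feature. The submitters' processing notes name edgeR and the build GRCm38, and no source used here gives the aligner, counter or annotation. 

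In 26 of 41128 features the count and the CPM did not match, and these were left out (0.0424% to 0.0636% of a library's counts). Counts were filtered by filterByExpr (minimum count 10), scaled by TMM and compared between genotypes by the edgeR 4.0.16 quasi-likelihood test in R 4.3.3, with Benjamini-Hochberg adjustment over 14271 features, a threshold of 0.05, and the SE taken as the log2 change over the root of the F statistic. Log2 CPM used a prior count of 2. Coordinates, exons and neighbours came from GENCODE M21 by Ensembl identifier, and start regions from RefSeq, which held 3 of the 4 genes. The fit was tested on simulated data. Alternatives were DESeq2 1.42.0, limma-voom 3.58.1, library totals, upper quartile scaling, TMM without the 16 crystallins, other filters, a replicate block and leaving out each library. The genes described, the lists and the markers were chosen with earlier results of these data known. Named beside them were Prox1, the 3 genes of nearest pattern and the neighbours of each gene, and the called genes of each list, with uncalled ones where a count needed them. Some genes that enter the counts and medians of lists are not reported here by name or drawn.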

Additional observations from a re-analysis of the deposited data

How the results depend on the processing

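Cryl1 kept its direction and its call under all 14 alternatives, with a log2 change between 1.23 and 1.58 (edgeR adjusted p 0.00511 to 0.0363) without 1 library and between 1.34 and 1.72 (edgeR, DESeq2 or limma adjusted p 0.00069 to 0.0173) under the others. Cryz was called under 13 of 14, and not with library totals in place of TMM (log2 -0.29, edgeR adjusted p 0.113); without 1 library it lay between -0.76 and -0.62. Cryzl1 was not called under any, with 0.11 under library totals and -0.39 to -0.17 without 1 library. Crym was not called under any, and lay between -0.18 and 0.78 without 1 library, below 0 without cKO library 3 (-0.03) or control library 3 (-0.18). Over all features, 4659 were called (2263 higher and 2396 lower), 6368 with library totals (5423 higher and 945 lower), and between 2267 and 5317 without 1 library, the lowest without control library 2 (2267) and control library 3 (2475).

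With library totals the called genes numbered 2 of the taxon-specific orthologues, 1 quinone or carbonyl reductase gene, 2 NADPH genes and 11 of thyroid hormone handling. With no filter 4 quinone and carbonyl reductase genes were called. Of the 3-hydroxyacyl-CoA dehydrogenase relatives 1 was called with upper quartile scaling and 1 with the replicate block. Without 1 library the numbers ran from 1 to 3 for quinone and carbonyl reductases, 2 to 4 for NADPH supply, 1 to 4 for the uronate and polyol pathway, 1 to 2 for 3-hydroxyacyl-CoA dehydrogenase relatives, 2 to 6 for thyroid hormone handling and 3 to 4 for lysine degradation. The cause of these shifts was not tested. With all annotated exons as the length, Cryz stood at 3.63 RPKM (cKO) and 4.45 RPKM (controls), Cryl1 stood at 2.26 RPKM (cKO), and the other 5 levels moved by less than their SD.

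cKO and control libraries of the same number had correlations of their deviations from the group means of -0.03, 0.25 and 0.11 across genes. cKO libraries 2 and 3 correlated best with the control library of their own number, and cKO library 1 did not. With 3 libraries per group these values cannot settle whether the numbers pair the samples. With the replicate number as a block, the log2 changes were -0.65 for Cryz, -0.24 for Cryzl1, 1.38 for Cryl1 and 0.41 for Crym, the calls of these 4 genes were as without it, and 4176 features were called. Counting error limits Cryl1, with 24 to 134 counts, more than the other 3 genes.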
